A study of Mus musculus with 6 samples.

Results

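Collagens are the proteins built from long triple helices that give skin its strength, and the mouse genome holds many genes for their chains. The genes described here are those whose symbol has the form of a collagen chain (Col, a number, a, a number) and whose array probe set is annotated to exactly 1 gene. They numbered 42 of the 18193 genes measured, and 82 of the 45037 probe sets. Where a gene had several probe sets, the brightest one, averaged over both groups, stood for it. By structure, 11 chains were fibrillar, 9 belonged to the basement membrane and its anchoring fibrils, 9 were of the FACIT type, 4 were transmembrane and 9 were of other types. Col6a6, Col28a1 and Col21a1 were looked for and not analysed here.

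Whole back skin was taken at postnatal day 2.5 from 6 female littermates (1 litter, mixed FVB/N and C57BL/6 strain), and each mouse had 1 array. The 3 caNrf2 mice (labelled K5cre-caNrf2, tg/tg) carried, per their labels, an always active Nrf2, a transcription factor of the antioxidant response, switched on by K5cre, a Cre whose keratin 5 promoter works in basal keratinocytes. The label of the 3 control mice (K5cre-wt, tg/wt) names K5cre without caNrf2 and is taken to mean Cre only, so that Cre would be common to both groups. The descriptions of all 6 samples also carry the word weak, which the labels do not explain. The comparison concerns skin whose keratinocytes hold an active Nrf2, while most collagen of skin is made by dermal fibroblasts, where the keratin 5 promoter is not known to work. Values are log2 of the deposited RMA intensity unless another scale is named. Differences are caNrf2 minus control, and with 3 arrays in each group the precision is modest.

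Fibrillar chains, types I, III and V above all in skin, assemble into the fibres of the dermis. Type IV chains form the sheet of the basement membrane, type VII forms the anchoring fibrils that hold this sheet to the dermis, and type XVII spans the membrane of basal keratinocytes at the hemidesmosome. FACIT chains (fibril-associated collagens with interrupted helices) sit on the surface of fibrils, and type VI forms beaded filaments around cells.

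The region before the gene start is shown for 3 members that stand for different cells: Col1a2, a fibrillar chain of dermal fibroblasts, Col7a1, which keratinocytes and fibroblasts both make, and Col17a1, made by the basal keratinocytes in which Cre is active. Each line gives 250 bases before the annotated start, 5′ to 3′ on the strand of the gene, from RefSeq, build GRCm38.p6.
Col1a2, chr6:4505368-4505617, plus strand: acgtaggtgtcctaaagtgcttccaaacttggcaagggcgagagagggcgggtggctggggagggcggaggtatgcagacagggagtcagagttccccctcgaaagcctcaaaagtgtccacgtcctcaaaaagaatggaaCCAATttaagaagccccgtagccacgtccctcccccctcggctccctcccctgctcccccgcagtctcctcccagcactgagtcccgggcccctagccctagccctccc
Col7a1, chr9:108953336-108953585, plus strand: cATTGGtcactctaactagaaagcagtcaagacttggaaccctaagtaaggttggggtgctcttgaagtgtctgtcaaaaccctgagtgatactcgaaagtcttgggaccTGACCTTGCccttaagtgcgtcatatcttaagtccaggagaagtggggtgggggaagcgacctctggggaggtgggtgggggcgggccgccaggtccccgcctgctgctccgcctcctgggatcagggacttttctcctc
Col17a1, chr19:47692043-47692292, minus strand: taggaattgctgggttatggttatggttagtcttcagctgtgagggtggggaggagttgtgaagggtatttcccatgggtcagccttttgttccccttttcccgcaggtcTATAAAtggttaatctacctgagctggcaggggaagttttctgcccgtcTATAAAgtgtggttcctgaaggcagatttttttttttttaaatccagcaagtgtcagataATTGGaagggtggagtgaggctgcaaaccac
Capitals mark matches on either strand to 3 motifs: the core letters of the antioxidant response element to which Nrf2 binds (TGACNNNGC), the TATA box (TATAAA) and the CCAAT box (CCAAT, or ATTGG on the other strand). Col7a1 held the antioxidant core starting 140 bases before its start and a CCAAT box at 249 bases, Col1a2 held a CCAAT box at 109 bases, and Col17a1 held TATA boxes at 140 and 91 bases and a CCAAT box at 31 bases. Such windows were found for 33 of the 42 genes, 36 windows in all, since some genes have several starts. The antioxidant core occurred in 6 of these 36 (16.7%) and in 10.2% of 32841 promoter windows of all genes. The CCAAT box occurred in 36.1% and 33.9%, and the TATA box in 13.9% and 12.4%, of the same windows. The 6 windows with the antioxidant core belonged to Col7a1, Col4a2, Col6a2, Col24a1, Col6a5 and Col9a2. A match is a description of letters and not of binding, and 0 matches to different motifs overlapped in the collagen windows.

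The labels were checked first. Nqo1, a quinone reductase and standard target of Nrf2, measured 9.46, 9.70 and 9.42 in caNrf2 skin and 6.20, 5.90 and 5.67 in control skin. It rose 12.2-fold in caNrf2 skin (difference 3.61 ± 0.13 SE, limma, adjusted p = 2.70e-07), and the groups lay far apart. Nfe2l2, which encodes Nrf2, measured 9.91, 9.75 and 9.75 in caNrf2 skin and 9.36, 9.40 and 9.42 in control skin. The Nfe2l2 groups did not overlap, and the difference of 0.41 ± 0.07 (SE) missed the threshold (limma, adjusted p = 0.0539); whether its probes see the transgene was not analysed here. Over all genes 63 were higher and 5 lower in caNrf2 skin (limma, adjusted p under 0.05). To mark signals near background, a floor of 5.66 was set at the 95th percentile of 69 genes of olfactory and vomeronasal receptors, which skin is not known to need. Of the collagens 35 of 42 lay above it, as did 71.7% of all genes. The 7 below were Col24a1, Col11a2, Col4a3, Col9a2, Col6a4, Col6a5 and Col10a1, and their differences are those of dim probe sets.

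None of the 42 collagen genes passed the threshold in caNrf2 skin. The count was 0 against a background of 0.374% of all genes called (0.346% higher and 0.0275% lower), and the smallest adjusted p of a member was 0.541. At an unadjusted p under 0.05 there were 3 members, all with negative differences, where the background was 8.09% (4.82% lower and 3.26% higher). The groups separated without overlap in 2 members, both with caNrf2 below control, where the background was 13.1% (6.88% lower and 6.23% higher). The first share, 7.14% of the members, lay above the background of genes that were lower (4.82%) and below that of both directions, and the second, 4.76%, lay below both. Differences ran between -0.26 for Col9a1 and 0.09 for Col4a5, with a median of -0.05 where all genes had -0.01. In whole skin, fewer cells of a type and less RNA per cell cannot be told apart, in either direction.

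The intervals describe the signal of the probe set used, for each gene on its own and not for all genes jointly. For genes below the floor they describe a signal near background. Every 95% interval of the 42 members lay within 1.5-fold in both directions, as did those of 98.4% of all genes, and 32 of the 42 lay within 1.25-fold, against 73.6% of all genes. The plot of all members shows each difference with its interval.

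**Figure D1:**
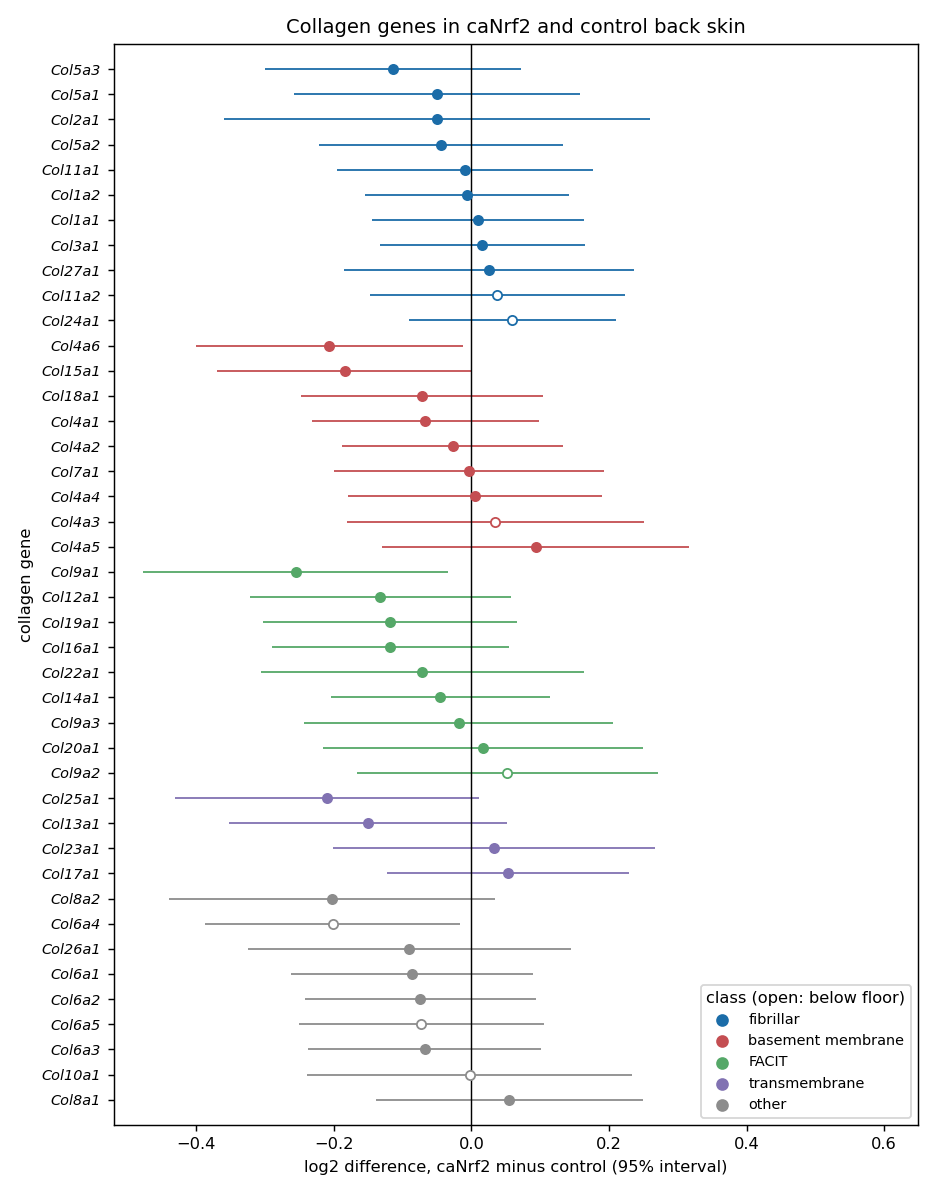
Log2 difference (caNrf2 minus control) of each of the 42 collagen genes with its 95% interval from limma, ordered by class and size; open points are genes below the floor of 5.66. The points run from -0.26 for Col9a1 to 0.09 for Col4a5, and the intervals of only Col4a6, Col9a1 and Col6a4 leave out 0 without adjustment.

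The fibrillar chains were the most even class, with a median difference of -0.01 over 11 genes. Both chains of type I collagen, the main fibre of dermis, bone and tendon, were as close between groups as between animals. Col1a1 measured 13.73, 13.80 and 13.82 in caNrf2 skin and 13.80, 13.80 and 13.73 in control skin, a fold of 1.01 (95% interval 0.904 to 1.12). Col1a2 measured 14.25, 14.25 and 14.30 in caNrf2 skin and 14.30, 14.27 and 14.25 in control skin, a fold of 0.996 (0.898 to 1.10). The groups overlapped for both, and so did those of Col3a1, the type III chain that is abundant in young skin. Its values were 14.38, 14.33 and 14.34 in caNrf2 skin and 14.32, 14.37 and 14.31 in control skin, a fold of 1.01 (0.912 to 1.12).

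Further probe sets of the same genes read alike. The second Col1a1 probe set, with a mean level of 10.92, differed by -0.0017, and the second Col3a1 probe set, at 12.68, by -0.06. The further Col1a2 probe sets, at 13.49 and 7.89, differed by -0.0044 and 0.02. Each of these readings lay within the SE of its own fit.

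Type V chains, which join type I in the fibril and limit its width, all had small negative differences. Col5a3 measured 10.16, 10.12 and 10.25 in caNrf2 skin and 10.40, 10.33 and 10.15 in control skin. The groups overlapped through control 3, and the difference was -0.11 ± 0.08 (SE, adjusted p = 0.785). Col5a2 measured 12.77, 12.87 and 12.99 in caNrf2 skin and 12.94, 12.98 and 12.85 in control skin, a difference of -0.04 ± 0.08. Col5a1 differed by -0.05 ± 0.09. On the probe sets used, the remaining fibrillar chains ranged from -0.05 to 0.06. Further probe sets of this class did not all read alike. A further Col11a1 set, at a mean level of 8.08, differed by 0.16 without overlap (limma over all probe sets, adjusted p = 0.584). Further Col5a1 sets, at 11.18 and 10.05, differed by -0.06 and -0.15, the latter without overlap (adjusted p = 0.608). A dim Col5a3 set, at 4.37, differed by -0.40 ± 0.18 (SE) with overlap. Those of Col5a2 and Col27a1 differed by -0.0004 and 0.02. Col2a1, the fibril chain of cartilage, varied most between animals of all members, with a pooled SD of 0.24 within groups, and had the widest interval of its class (0.779 to 1.20-fold).

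**Figure D2:**
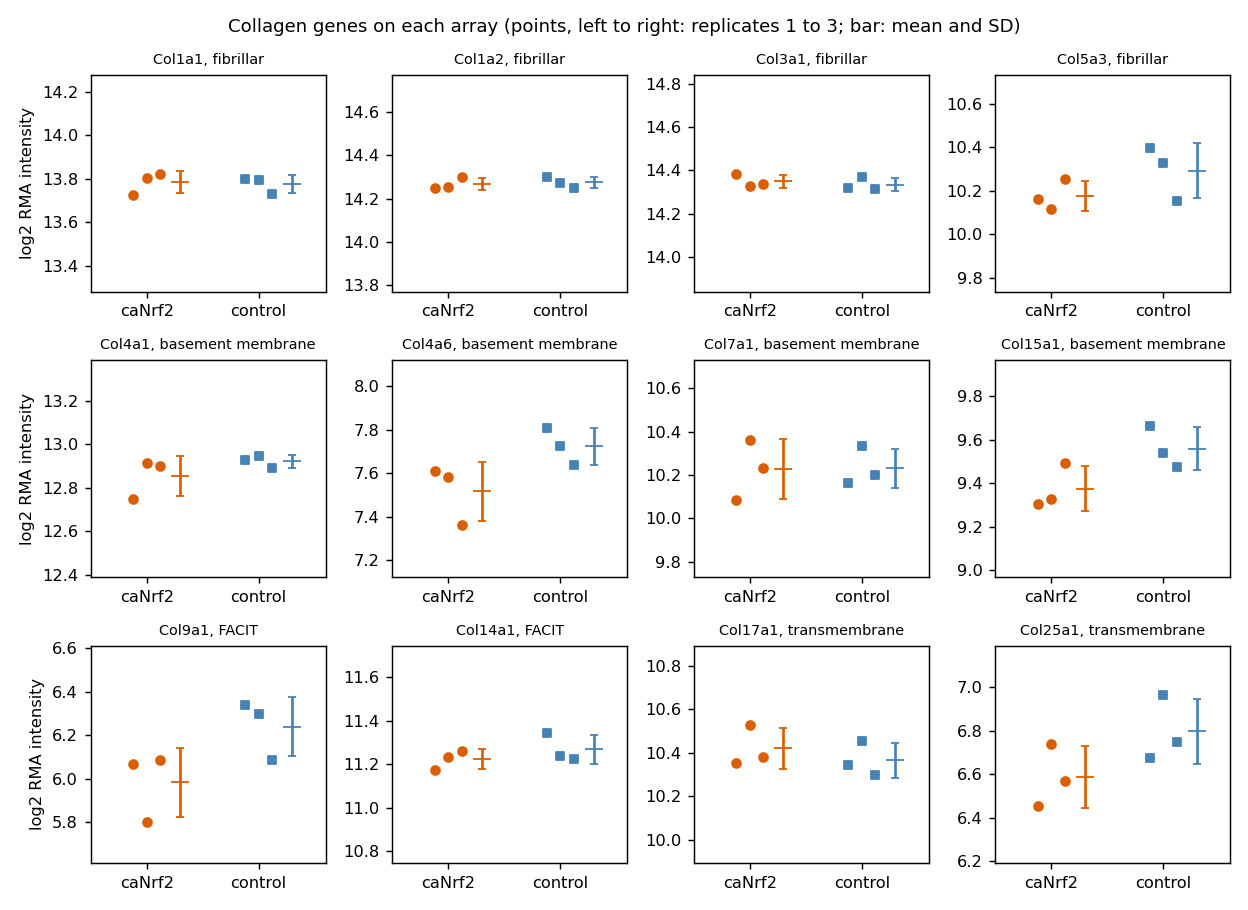
Log2 RMA intensity of 12 collagen genes on each array, caNrf2 (circles) left of control (squares), with the mean and SD of 3 arrays beside the points; each panel spans 1 log2 unit around its own mean. Col1a1, Col1a2 and Col3a1 overlap closely, while the caNrf2 points of Col4a6 (7.61, 7.58 and 7.36) all lie below the control points (7.81, 7.73 and 7.64).

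Basement membrane chains had a median difference of -0.03 over 9 genes, and 6 of the 9 differences were negative. The median was -0.072 without caNrf2 2 and -0.014 without caNrf2 1. Col4a1 and Col4a2, the type IV chains of nearly every basement membrane, stayed near 0. Col4a1 measured 12.75, 12.91 and 12.90 in caNrf2 skin and 12.93, 12.95 and 12.89 in control skin, a difference of -0.07 ± 0.07 (SE). Col4a2 measured 11.71, 11.87 and 11.77 in caNrf2 skin and 11.84, 11.82 and 11.78 in control skin, a difference of -0.03 ± 0.07. In both genes caNrf2 1 was the lowest array and the groups overlapped.

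Col4a5 and Col4a6 are type IV chains that occur together in the basement membrane of skin and lie head to head on the X chromosome. On the probe sets used they differed in opposite directions. Col4a6 measured 7.61, 7.58 and 7.36 in caNrf2 skin and 7.81, 7.73 and 7.64 in control skin. Each caNrf2 value lay under each control value, and the difference of -0.21 ± 0.09 (SE), a fold of 0.867 (0.757 to 0.992), did not pass the adjustment (unadjusted p = 0.0396, adjusted p = 0.592). A second Col4a6 probe set, at a mean of 6.89, differed by only -0.01. Col4a5 measured 9.70, 9.58 and 9.53 in caNrf2 skin and 9.42, 9.73 and 9.38 in control skin, with overlap of the groups and a difference of 0.09 ± 0.10. A second Col4a5 probe set, at a mean of 7.80, differed by only 0.02.

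The ratio of 2 chains on the same array was compared for 6 pairs of partner chains, which were chosen after their values had been seen. The log2 ratio of Col4a6 to Col4a5, relative to its control mean, was -0.30, -0.22 and -0.38 in caNrf2 skin and 0.18, -0.22 and 0.04 in control skin. Its mean shift of -0.30 gave an exact two-sided permutation p = 0.2 (adjusted p = 0.9 over the 6 pairs; 3 against 3 arrays cannot go below 0.1). The control spread, with an SD of 0.20, was set mainly by the Col4a5 values. This ratio rests on the probe set used for each gene. The ratio of the second sets, each of which differed little between groups, was not analysed here. The ratios of Col1a2 to Col1a1, Col4a2 to Col4a1, Col6a2 to Col6a1 and Col5a2 to Col5a1 shifted by -0.02, 0.04, 0.01 and 0.0057, and their exact permutation p-values were 0.7, 0.3, 0.7 and 1. Col4a4 to Col4a3 shifted by -0.03 (exact permutation p = 1), with Col4a3 below the floor.

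Col7a1 and the multiplexins complete the class. Col7a1, whose loss in the skin causes blistering beneath the epidermis, measured 10.09, 10.36 and 10.23 in caNrf2 skin and 10.16, 10.33 and 10.20 in control skin. This is a fold of 0.997 (0.870 to 1.14), beside the antioxidant core in the region shown above. Col15a1, a chain at the basement membrane of muscle and capillaries, measured 9.30, 9.33 and 9.49 in caNrf2 skin and 9.67, 9.54 and 9.47 in control skin. The groups overlapped by caNrf2 3 and control 3, and the difference was -0.18 ± 0.08 (SE, unadjusted p = 0.0508, adjusted p = 0.620). Col18a1, the precursor of endostatin, measured 10.19, 10.41 and 10.31 in caNrf2 skin and 10.43, 10.35 and 10.33 in control skin, a difference of -0.07 ± 0.08.

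FACIT chains had a median of -0.07 over 9 genes, with 7 negative differences and 8 genes above the floor. Col9a1, a fibril-associated chain of cartilage, had the smallest p of all members. It measured 6.07, 5.80 and 6.09 in caNrf2 skin and 6.34, 6.30 and 6.09 in control skin, at a level not far above the floor. The difference was -0.26 ± 0.10 (SE), a fold of 0.838 (0.718 to 0.977), with an unadjusted p = 0.0280 and an adjusted p = 0.541, and caNrf2 3 met control 3. Its second probe set, below the floor at 4.71, differed by -0.02. Its partner chains Col9a2 and Col9a3 differed by 0.05 and -0.02.

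The FACIT chains of the dermis had negative differences of smaller size. Col12a1, which lies on type I fibrils, measured 10.37, 10.49 and 10.59 in caNrf2 skin and 10.66, 10.69 and 10.50 in control skin, a difference of -0.13 ± 0.09 (SE, adjusted p = 0.744). Col16a1 measured 9.76, 9.91 and 9.85 in caNrf2 skin and 9.99, 10.02 and 9.86 in control skin, a difference of -0.12 ± 0.08. Col14a1, another chain that binds fibrils of dermis and tendon, measured 11.17, 11.23 and 11.26 in caNrf2 skin and 11.34, 11.24 and 11.22 in control skin, a difference of -0.05 ± 0.07. In all 3 the groups overlapped, and control 3 was the lowest of its group. Col19a1, Col22a1 and Col20a1, all within 1 unit of the floor, ranged from -0.12 to 0.02.

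Transmembrane chains had a median of -0.06 over 4 genes, with 2 negative and 2 positive differences. They include Col17a1, the member most closely tied to the cells that carry active Nrf2. Col17a1 measured 10.35, 10.53 and 10.38 in caNrf2 skin and 10.34, 10.46 and 10.30 in control skin. The groups overlapped, and the fold was 1.04 (0.919 to 1.17; difference 0.05 ± 0.08, adjusted p = 0.910). Col23a1, a shed transmembrane chain, measured 8.06, 8.35 and 8.42 in caNrf2 skin and 8.15, 8.38 and 8.20 in control skin, a difference of 0.03 ± 0.11. Col25a1, known in motor nerve and muscle, measured 6.45, 6.74 and 6.57 in caNrf2 skin and 6.68, 6.97 and 6.75 in control skin. Its difference of -0.21 ± 0.10 (SE) had an unadjusted p = 0.0607 and an adjusted p = 0.642, and a second probe set at 6.39 differed by -0.17. Col13a1 measured 5.56, 5.85 and 5.81 in caNrf2 skin and 5.81, 5.91 and 5.96 in control skin, close to the floor, a difference of -0.15 ± 0.09.

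The other chains had a median of -0.07 over 9 genes, with 8 negative differences and 6 genes above the floor. Among them, the 3 main chains of type VI collagen, which surround fibroblasts, fat and muscle cells, had similar small negative differences. Col6a1 measured 12.40, 12.58 and 12.61 in caNrf2 skin and 12.64, 12.65 and 12.57 in control skin, a difference of -0.09 ± 0.08 (SE). Col6a2 measured 12.90, 13.00 and 13.07 in caNrf2 skin and 13.13, 13.06 and 13.01 in control skin, a difference of -0.07 ± 0.08. Col6a3 measured 12.81, 12.95 and 12.98 in caNrf2 skin and 13.01, 13.01 and 12.91 in control skin, a difference of -0.07 ± 0.08. For each of them caNrf2 1 was the lowest of the 6 arrays. Col6a4 measured 4.99, 4.84 and 5.03 in caNrf2 skin and 5.06, 5.15 and 5.26 in control skin, without overlap but below the floor. The difference was -0.20 ± 0.08 (SE, limma, unadjusted p = 0.0355, adjusted p = 0.580). A second Col6a4 probe set, also below the floor at 4.64, differed by -0.06 with overlap. Col8a2, a network chain close to the floor, measured 5.57, 5.88 and 5.44 in caNrf2 skin and 5.78, 5.90 and 5.82 in control skin. Its difference was -0.20 ± 0.11 (SE, limma, adjusted p = 0.682), and its partner Col8a1 differed by 0.06 ± 0.09. Further Col8a1 sets, at mean levels of 7.13 and 5.32, differed by -0.04 and -0.04, the latter below the floor. Col26a1, Col10a1, the chain of hypertrophic cartilage, and Col6a5 ranged from -0.09 to -0.0023.

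Small negative differences were more frequent than positive ones. They were found in 29 of the 42 members (69.0%), where 52.8% of all genes were below 0, and 26 members lay below the median of all genes. Above the floor they were found in 26 of 35 members (74.3%), where 46.8% of all genes above the floor were below 0. With arrays centred on their medians the count was 26 and with a further quantile normalisation 30. Leaving out 1 array gave counts from 25 (without caNrf2 1) to 33 (without caNrf2 3). The share was not tested, because the members vary together from array to array. The histogram sets the members beside all genes.

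**Figure D3:**
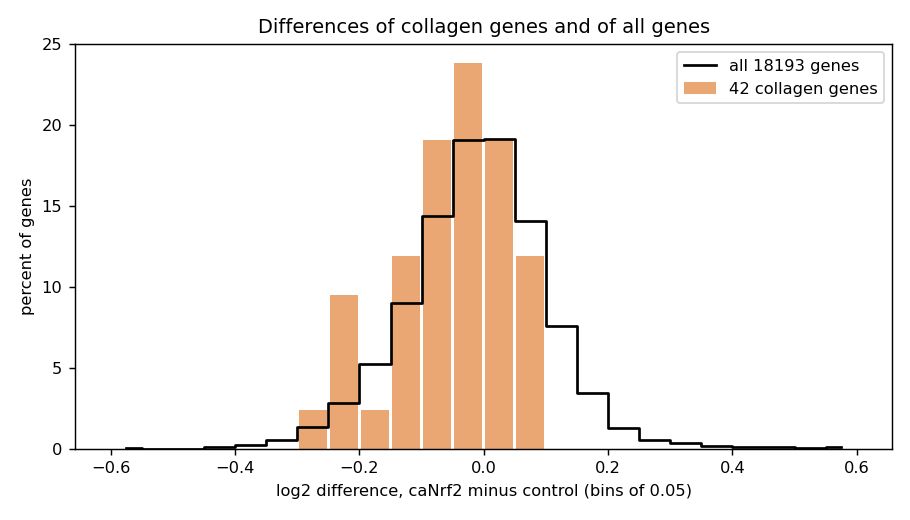
Share of genes (percent) in bins of 0.05 of the log2 difference, caNrf2 minus control, for the 42 collagen genes (bars) and all 18193 genes (line). The collagen median of -0.05 lies a little left of the median of all genes at -0.01, inside the spread of all genes.

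The arrays were not alike in this respect. Array caNrf2 1 was the lowest of the 6 for 21 of the 42 members (50.0%), and for 25.5% of all genes. Averaged over the 42 members, arrays deviated from the control mean by -0.11, -0.04 and -0.01 for caNrf2 1 to 3 and by -0.01, 0.05 and -0.03 for control 1 to 3. Without caNrf2 1 the median difference of the collagens was -0.02, and 25 of 42 were negative. The values of the groups overlapped in this average, as caNrf2 3 and caNrf2 2 stood beside control 1 and control 3.

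Markers of skin cells were also followed array by array. The 9 fibroblast markers measured of 10 listed, none of which was called, averaged -0.16, 0.02 and 0.03 for caNrf2 1 to 3 and 0.04, 0.04 and -0.08 for control 1 to 3, relative to the control mean. Their summed intensity was 30365 to 32881 in caNrf2 skin and 31334 to 33890 in control skin. The 8 skeletal muscle markers averaged -0.19, 0.08 and 0.17 for caNrf2 1 to 3 and 0.02, -0.03 and 0.0011 for control 1 to 3, with sums of 53760 to 61692 in caNrf2 skin and 57000 to 59056 in control skin. The 6 markers of basal keratinocytes averaged 0.03, 0.12 and 0.04 for caNrf2 1 to 3 and -0.01, 0.0015 and 0.01 for control 1 to 3, with sums of 35144 to 37115 in caNrf2 skin and 34347 to 35655 in control skin. Array caNrf2 1 was the lowest for the fibroblast and muscle lists, and the keratinocyte averages of the caNrf2 arrays all lay above those of the control arrays. The part of cell makeup in the collagen values was not tested. Cartilage markers, relevant to Col2a1 and Col9a1, were dim. Of their 8 measured genes 3 lay above the floor, with sums of 333 to 352 in caNrf2 skin and 344 to 376 in control skin. Over the 8 genes the median difference was -0.08, with 6 negative and 2 positive differences. Snorc, a cartilage proteoglycan, had the most negative difference of the list. It measured 5.88, 5.85 and 6.02 in caNrf2 skin and 6.28, 6.27 and 6.12 in control skin. Its difference was -0.30 ± 0.08 (SE, limma, adjusted p = 0.301). None of the markers of bone, fat, endothelium, Schwann cells, hair follicle, macrophages and pericytes was called either. The median differences of these lists, in the same order, were -0.03, -0.07, -0.09, -0.04, -0.05, 0.04 and -0.02 over 5, 4, 6, 4, 8, 5 and 6 measured genes.

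**Figure D4:**
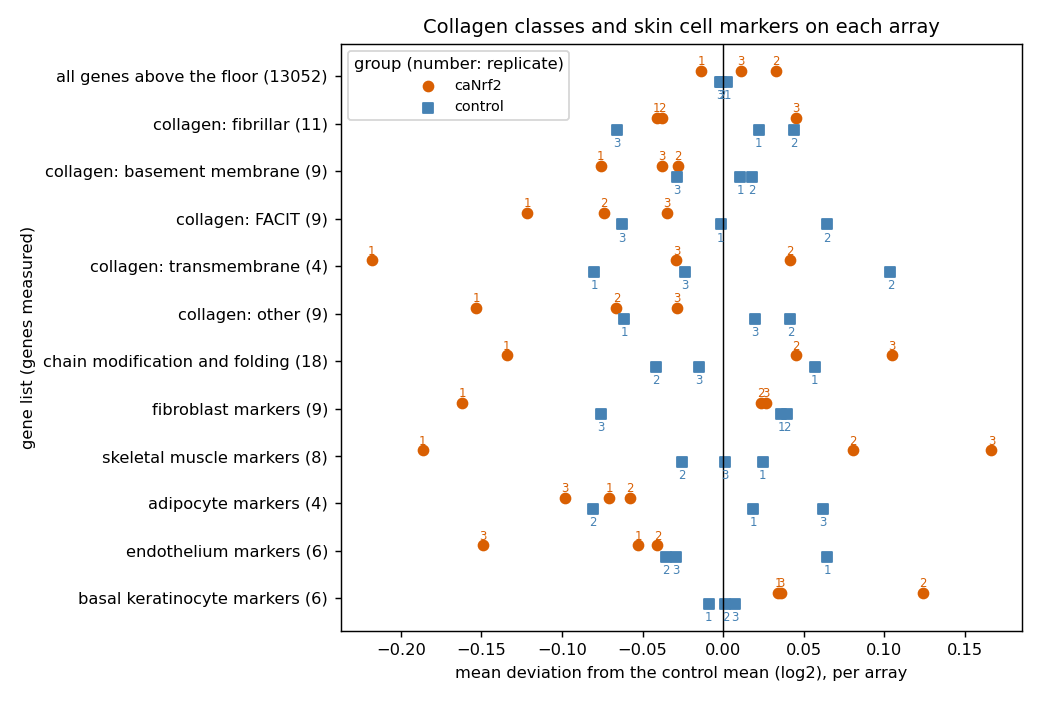
Mean deviation from the control mean (log2) on each array for the collagen classes, a list of collagen-modifying genes, markers of skin cells and all genes above the floor, with the number of genes in brackets, caNrf2 as circles and control as squares, numbered by replicate. Array caNrf2 1 is lowest for every collagen class except the fibrillar one, where control 3 is lowest.

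Genes that make, cut and sense collagen were followed as lists, and none of their measured members passed the threshold (limma, adjusted p over all genes). Among 18 genes that modify and fold the chains, such as prolyl and lysyl hydroxylases, the median was -0.01. Of these 0 had an unadjusted p under 0.05, against 8.09% of all genes. Plod2, a lysyl hydroxylase that directs crosslinks, measured 8.27, 8.40 and 8.57 in caNrf2 skin and 8.36, 8.30 and 8.22 in control skin, a difference of 0.12 ± 0.09 (SE, adjusted p = 0.785). Among 11 genes of propeptide removal and crosslinking the median was -0.05. Bmp1, the procollagen C-proteinase, and Loxl1, a lysyl oxidase, differed by -0.10 ± 0.08 and -0.11 ± 0.08. Tll1, a relative of Bmp1, had the smallest p of that list and lay below the floor (4.98, 4.99 and 5.25 in caNrf2 skin and 4.79, 4.81 and 4.88 in control skin; 0.25 ± 0.09, adjusted p = 0.477).

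Breakdown, receptors and growth factors likewise held no called gene. The 15 proteases and inhibitors had a median of -0.0021, and Mmp3, stromelysin 1, had the smallest p at a level below the floor (4.89, 5.00 and 4.96 in caNrf2 skin and 5.22, 5.13 and 5.28 in control skin; -0.25 ± 0.07 SE, adjusted p = 0.341). Mrc2, an uptake receptor for collagen fragments, differed by -0.12 ± 0.09. Of 8 collagen receptors 5 had groups without overlap, against 13.1% of all genes, and none was called. At an unadjusted p under 0.05 there were 0 of them, where the background was 8.09% of all genes. Above the floor lay 6 of the 8. The median of the receptors was -0.12, and over the whole list 5 differences were negative and 3 positive. Itgb1, the beta chain of all collagen-binding integrins, measured 10.47, 10.47 and 10.61 in caNrf2 skin and 10.36, 10.38 and 10.38 in control skin (0.15 ± 0.07 SE, adjusted p = 0.651). Itga2, the alpha chain of the type I collagen receptor of keratinocytes and platelets, went the other way at a level close to the floor. It measured 5.79, 5.87 and 5.65 in caNrf2 skin and 6.02, 5.89 and 5.92 in control skin. The difference was -0.17 ± 0.08 (SE, limma, adjusted p = 0.637). Among 13 growth factors, receptors and mediators that control matrix genes, with a median of -0.02, Tgfb2 measured 8.50, 8.58 and 8.58 in caNrf2 skin and 8.43, 8.42 and 8.22 in control skin (0.19 ± 0.08, unadjusted p = 0.0355, adjusted p = 0.580).

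Probe sets of the same collagen gene often disagreed in sign. Of 27 members with several probe sets, 13 had all of one sign. Of 40 further probe sets 22 had the sign of the one used, and of the 22 above the floor 14 did. None of the 82 collagen probe sets passed the threshold when all probe sets were fitted (smallest adjusted p = 0.432), while 108 of all probe sets did (0.24%). At an unadjusted p under 0.05 there were 5 collagen probe sets, all with negative differences. That is 6.10% of them, where 4.85% of all probe sets were lower at this threshold and 8.86% differed in either direction. They were the used sets of Col4a6, Col9a1 and Col6a4, a further set of Col25a1 above the floor (mean level 6.39, difference -0.17), and a dim further set of Col19a1 (mean level 4.10, difference -0.28).

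**Figure D5:**
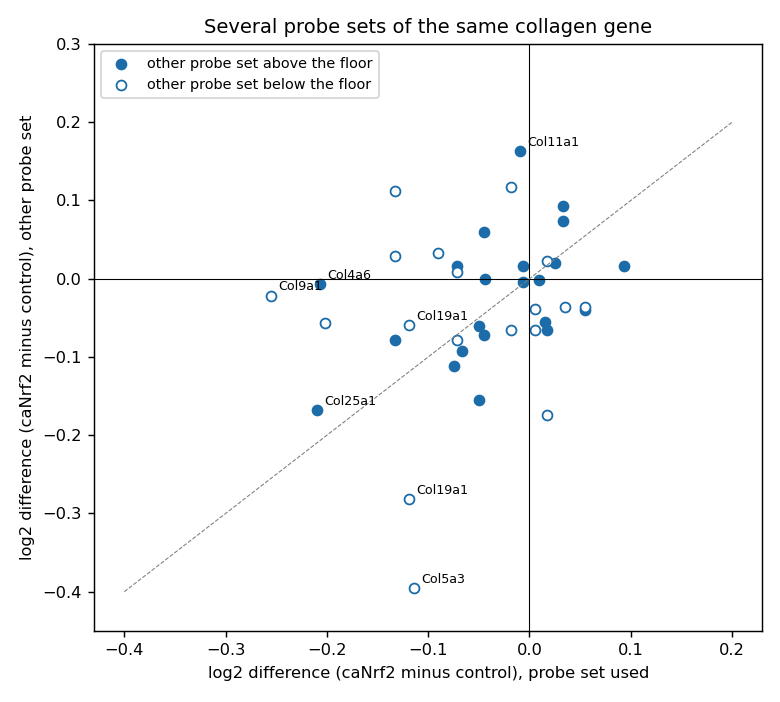
Log2 difference (caNrf2 minus control) of each of 40 further probe sets of collagen genes against that of the probe set used for the gene; filled points lie above the floor, the dashed line marks equal values, and some genes are named. Col9a1 and Col4a6, at -0.26 and -0.21 on the probe sets used, are near 0 on their second probe sets (-0.02 and -0.01), whereas Col25a1 is at -0.21 and -0.17.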

How the data were processed

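Expression was measured with Affymetrix arrays, 1 per mouse, from 2 µg of total RNA per the labels' protocols. The deposited intensity values, linear and already summarised by probe set, came from RMA per the submitters' processing notes. Its software and version were not given in those notes. The arrays did not share one distribution exactly, with upper quartiles of 331.2, 343.4 and 341 intensity units for caNrf2 1 to 3 and 332.3, 329.4 and 330.6 for control 1 to 3. Columns of other series numbered 0.

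The deposited intensities were converted to log2, and each gene was represented by its brightest probe set on average. Of 45101 probe sets 64 array controls were left out. The platform annotation gave 1 symbol for 34945, several for 932 and none for 9160 of the others. The test of caNrf2 against control was that of limma 3.58.1 (R 4.3.3; lmFit, then eBayes; no block, 4 residual degrees of freedom, Benjamini-Hochberg adjustment over 18193 genes, threshold 0.05), and the fit was tested on simulated data. Array medians were 80.7 to 81.9 intensity units. Genes named were, in each class, the 3 with the smallest p and the 3 brightest, up to 3 of each pathway list and up to 2 of each marker list with the smallest p, and Nfe2l2 and Nqo1; other names were chosen later. The members and lists were chosen with earlier results of these data known. Promoter sequences are RefSeq's, build GRCm38.p6. Alternatives were a replicate block, 2 further normalisations, a filter at the floor, the mean of all probe sets, every probe set on its own, an intensity trend, robust eBayes, array weights and leaving out each array.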

Additional observations from a re-analysis of the deposited data

How the results depend on the processing

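No collagen gene passed the threshold under any of the 15 alternatives, and the smallest adjusted p of a member ranged from 0.217 (Col4a6, array weights) to 0.901 (without control 2). The number of genes called over the whole array was 68, and 41 to 89 when 1 array was left out. Without control 1, 2 and 3 the number was 41, 43 and 45. With every probe set fitted on its own, 108 probe sets were called, which is not a count of genes. The median difference of the basement membrane chains, -0.03, ran from -0.072 (without caNrf2 2, and -0.07 without caNrf2 3) to -0.014 (without caNrf2 1) when 1 array was left out. The collagen median, -0.05, ran from -0.08 to -0.02. The causes were not tested. Of 25 collagen genes followed, 6 changed sign under some alternative, none of them called. Centring or quantile normalisation shifted the all-gene median by at most 0.0115. The replicate numbers were not treated as pairs, since deviations of same-numbered arrays correlated at -0.20, -0.03 and 0.04; with a replicate block 61 genes and 0 collagen genes were called. With 3 arrays per group, 32 of the 42 collagen intervals lay inside 1.25-fold, and the other 10 reached past it in at least 1 direction.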

Other observations

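Other matrix genes of the skin were followed in lists chosen after the collagen values had been seen. Of 14 laminins, nidogens and heparan sulphate proteoglycans none was called (limma, adjusted p under 0.05) and the median difference was -0.04. Hspg2, which encodes perlecan, measured 9.70, 9.81 and 9.70 in caNrf2 skin and 9.91, 9.94 and 9.85 in control skin, without overlap (-0.16, adjusted p = 0.613). Of 10 elastic fibre genes none was called, and the median was -0.08, with 6 negative and 4 positive differences. The groups did not overlap for Ltbp2 (-0.16 ± 0.07 SE, adjusted p = 0.603). Mfap4, with overlap, had the largest difference of the list (-0.21 ± 0.11, adjusted p = 0.664). Eln, the gene of elastin, measured 10.91, 11.12 and 11.00 in caNrf2 skin and 11.11, 11.02 and 11.17 in control skin. Of 9 other matrix glycoproteins none was called, with a median of -0.01, and Fn1, which encodes fibronectin, measured 11.90, 12.04 and 11.92 in caNrf2 skin and 12.09, 11.91 and 11.99 in control skin. At an unadjusted p under 0.05 there were 1, 1 and 0 genes in these 3 lists, where the background was 8.09% of all genes. The groups did not overlap for 2, 1 and 0 genes, where the background was 13.1%.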
